A study of Capra hircus with 6 samples.

Results

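The thrombospondins and other matricellular genes examined here are 10 genes, found by their symbols among the 16262 gene rows shared by the deposited tables of both groups. They are THBS1, THBS2, THBS3, COMP, TNC, POSTN, TGFBI, SPARC, FN1 and MXRA8, and each symbol was found. Messenger RNA was sequenced in goat (Capra hircus) adipose mesenchymal stem cells, which belong to the stroma of fat tissue and can form fat cells, and every library is labelled with adipogenic differentiation as its treatment. Of the 6 libraries, 3 are controls of genotype WT and 3 come from cells that overexpress TAZ, the product of WWTR1 and a transcriptional coactivator under control of the Hippo pathway. The comparison asks what TAZ does to the formation of fat cells, and although TNF-α appears in the title of the study, the sample labels name no cytokine. The sources used here do not give the vector, the promoter that drives TAZ, any empty-vector control, the age and number of the goats or the time under differentiation.

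Matricellular proteins are secreted into the extracellular matrix, where they act less as scaffold than as signals, binding cell-surface receptors, growth factors and proteases. Thrombospondins are the best known family, and their members THBS1 and THBS2 form trimers while THBS3 and COMP form pentamers. In fat tissue, this class of proteins is made mainly by stromal cells, and remodelling of the matrix accompanies the formation of fat cells. THBS1 is a known target of the YAP and TAZ coactivators and can release TGF-beta, a growth factor that drives matrix synthesis, from its latent form.

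The libraries held 16935698 to 18852822 fragments, as recovered from the steps between the low values. FPKM scales fragment numbers to the length of a gene and to the size of a library, so levels of different genes can be set side by side. WWTR1 rose to 2.99 times its control level (log2 fold change 1.54, limma adjusted p = 6.91e-07, controls 32.0 ± 3.38 FPKM, TAZ 95.7 ± 19.5 FPKM, mean ± SD, n = 3 in each group). The 8 stromal markers summed to 15000 to 16000 FPKM in the controls and 13400 to 14600 FPKM with TAZ overexpression, most of it VIM (10000 to 13200 FPKM). Of these 8, PDGFRB, LUM and DCN rose, THY1, ENG and VIM fell, and PDGFRA and NT5E did not pass. Markers of other cells were mixed. PTPRC of leukocytes and KDR of endothelium were listed at 0 in every library, and EPCAM of epithelium, RGS5 of pericytes and ACAN of cartilage stayed under 0.1 FPKM. The 5 endothelial markers summed to 0.336 to 0.533 FPKM in the controls and 0.137 to 0.316 FPKM with TAZ overexpression, and the 4 epithelial markers to 0.553 to 0.72 and 0.0902 to 0.159 FPKM. Of the leukocyte, pericyte and cartilage lists, CD14 (8.17 to 24.5 FPKM), ACTA2 (151 to 559 FPKM), CSPG4 (21.8 to 32.0 FPKM), NOTCH3 (11.6 to 18.1 FPKM) and SOX9 (1.38 to 3.75 FPKM) were above 1 FPKM in every library, with CD14 and NOTCH3 called higher and ACTA2 and SOX9 called lower. The fat cell markers LEP and LPL were also under 0.1 FPKM in every library. ADIPOQ (0.0769 to 0.153 FPKM), PLIN1 (0.0529 to 0.168 FPKM) and PPARG (0 to 0.142 FPKM) were low too. Of this list only CIDEC, a lipid droplet protein gene, passed the filter, at 16.6 to 19.3 FPKM. In bulk samples such as these, fewer cells of a type and less RNA per cell cannot be told apart.

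Of the 10 genes, THBS1 rose with TAZ overexpression and MXRA8, TGFBI, THBS3 and TNC fell. THBS2, SPARC, FN1 and POSTN did not pass the test, and COMP was too low to be tested. The test was limma's moderated test on log2(FPKM + 1) over 10750 genes, with an adjusted p under 0.05 as the threshold. Log2 fold changes below are TAZ overexpression minus control on that scale, on which low genes appear to change less than they do. Over all tested genes 37.9% passed, 15.7% higher and 22.1% lower, against 5 of the 9 tested genes here, 1 higher and 4 lower. Median-ratio scaling of the libraries gave 2001 genes higher and 1821 lower over all genes in place of 1693 and 2381, and it changed none of the calls among these 9. The median log2 fold change of the 9 was -0.14, beside -0.05 over all tested genes. Whether replicates are separate cultures is not in the labels, so the p-values speak only of how these libraries vary, which may be technical.

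**Figure D1:**
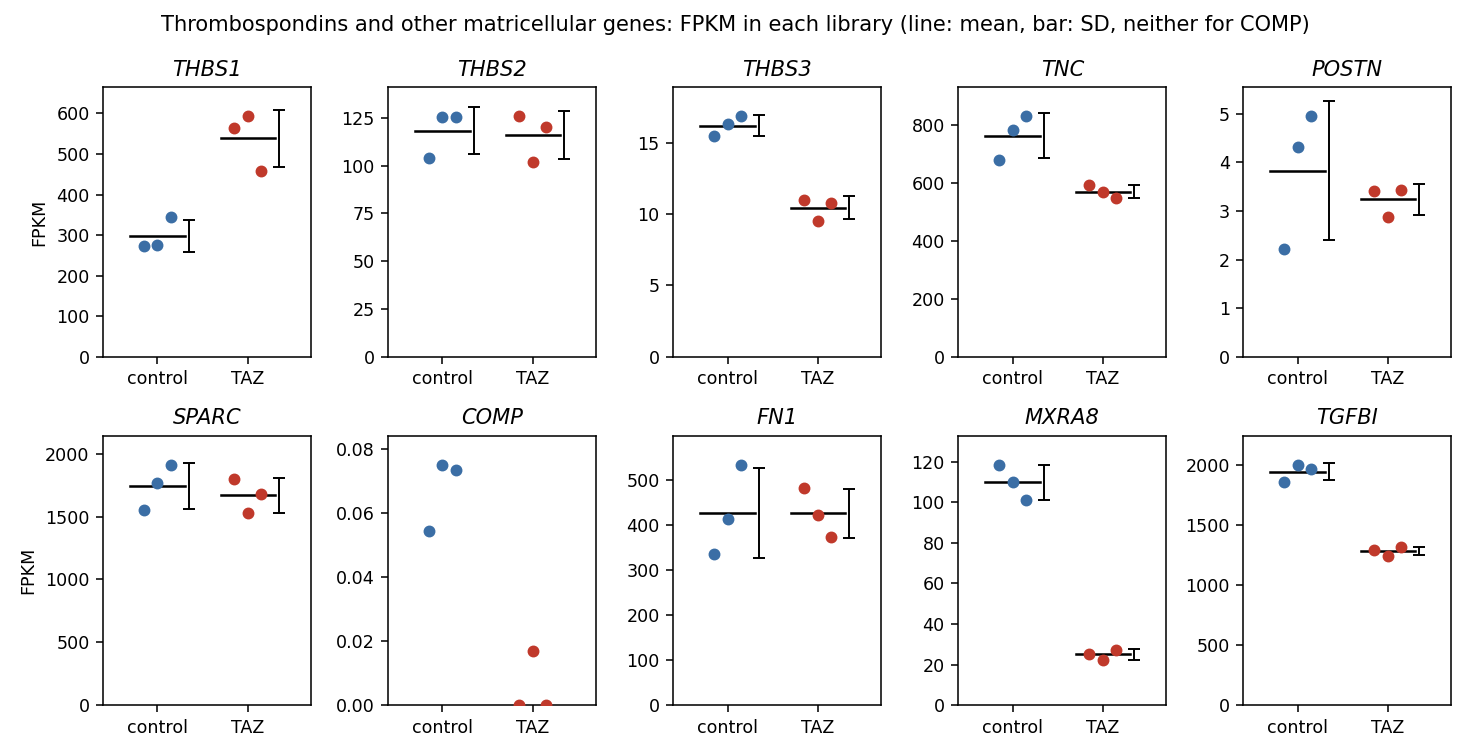
FPKM (vertical axes, linear, starting at 0) of the 10 genes in the 3 control libraries (blue) and the 3 TAZ libraries (red), with the mean as a line and the SD as a bar except for COMP. The groups lie apart for THBS1, THBS3, TNC, MXRA8, TGFBI and COMP, and overlap for THBS2, POSTN, SPARC and FN1.

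THBS1 encodes a trimeric thrombospondin that binds the receptors CD47 and CD36. In replicates 1, 2 and 3 of the controls it measured 274, 276 and 344 FPKM, and the TAZ replicates in the same order gave 564, 593 and 458 FPKM. Every TAZ library lay above every control library, and the lowest TAZ value was replicate 3. With means of 298 ± 40.0 and 539 ± 71.3 FPKM, THBS1 rose to 1.81 times the control level (log2 fold change 0.85, SE 0.12, limma adjusted p = 7.2e-05). THBS1 was the only gene of the 9 that rose. On the log2(FPKM + 1) scale 487 called genes, THBS1 included, rose by at least as much. Its rank among the 16262 genes was 198 to 258 in the controls and 120 to 162 in the TAZ libraries. Platelets and monocytes are rich sources of thrombospondin-1. The platelet list summed to 1.76 to 2.44 FPKM in the controls and 1.26 to 2.08 FPKM in the TAZ libraries. The leukocyte list summed to 9.05 to 11.9 and 24.2 to 25.1 FPKM, nearly all of it CD14, with PTPRC at 0, and its part in the rise of THBS1 was not tested.

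THBS2, the closest relative of THBS1, can also bind CD47 and CD36 but does not activate latent TGF-beta. Its values were 104, 126 and 125 FPKM in the controls and 126, 102 and 120 FPKM in the TAZ libraries. The groups overlapped almost completely. The log2 fold change was -0.03 (SE 0.10, limma adjusted p = 0.847), with a 95% interval from -0.25 to 0.19, so changes of the size of THBS1's lie outside the interval.

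The ratio of THBS1 to THBS2 within a library does not depend on how libraries are scaled. It was 2.63, 2.19 and 2.74 in the controls and 4.48, 5.84 and 3.81 in the TAZ libraries. The groups did not overlap, and the ratio was 1.85 times as high with TAZ overexpression (exact permutation test, two-sided, p = 0.1, the smallest that 3 libraries against 3 allow, and 0.133 adjusted over the 4 ratios examined).

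THBS3 is a pentameric thrombospondin found in skeletal and connective tissue. Its level was 15.4, 16.3 and 16.9 FPKM in the controls and 11.0, 9.51 and 10.8 FPKM in the TAZ libraries. All TAZ values lay below all control values. THBS3 fell to 0.644 times the control level (log2 fold change -0.59, SE 0.092, limma adjusted p = 0.000245), in the direction opposite to THBS1.

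COMP, the other pentameric thrombospondin here and a protein of cartilage and tendon, was close to absent. Its values were 0.0545, 0.0751 and 0.0735 FPKM in the controls, and 0.0169 FPKM in TAZ replicate 2 with the other two TAZ libraries listed at 0. Taken as whole fragments, these correspond to 3, 4 and 4 fragments in the controls and to 0, 1 and 0 with TAZ overexpression. A count of 0 allows up to 3 fragments. The summed rate in the TAZ libraries was 0.0865 times that in the controls, with an exact 95% interval from 0.00201 to 0.595 that covers counting error only. COMP was below the filter of 1 FPKM in at least 3 libraries. With no filter, limma called it lower (log2 fold change -0.086, SE 0.012, adjusted p = 0.0056), a call on 12 fragments in all. The cartilage and tendon marker list was low as well, summing to 3.03 to 4.05 FPKM in the controls and 1.78 to 2.22 FPKM in the TAZ libraries. Most of each sum was SOX9 (2.48 to 3.75 and 1.38 to 1.87 FPKM), while ACAN, COL2A1 and SCX stayed under 0.1 FPKM. The part of this list in the COMP values was not tested.

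**Figure D2:**
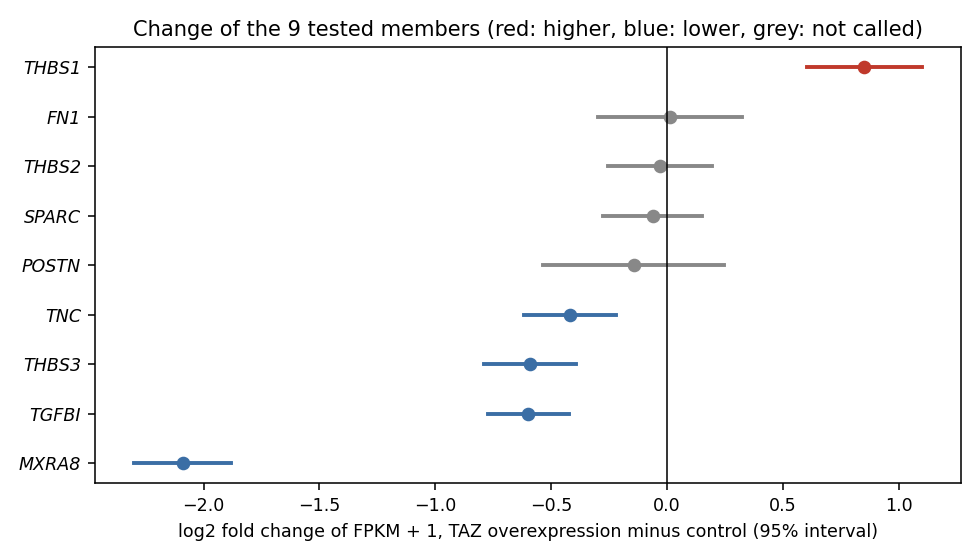
Log2 fold change of FPKM + 1 (horizontal axis, TAZ overexpression minus control) with its 95% interval for the 9 tested genes, coloured by the call at an adjusted p under 0.05. THBS1 stands alone on the right at 0.85, MXRA8 lies far to the left at -2.09, and the intervals of FN1, THBS2, SPARC and POSTN cross 0.

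MXRA8 encodes a membrane adhesion protein with immunoglobulin domains, known as an entry receptor of arthritogenic alphaviruses. It stood at 119, 110.0 and 101 FPKM in the controls and at 25.5, 22.3 and 27.5 FPKM in the TAZ libraries. The highest TAZ value was far under the lowest control value. At 0.228 times the control level, the fall of MXRA8 (log2 fold change -2.09, SE 0.097, limma adjusted p = 2e-09) was the largest change in either direction among the 9 tested genes. On the log2(FPKM + 1) scale only 7 called genes, MXRA8 among them, fell by that much. That scale shrinks the changes of low genes, and SMOC1, described below, fell to 0.0961 times its control level. The rank of MXRA8 was 589 to 665 in the controls and 2475 to 2974 in the TAZ libraries.

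TGFBI encodes a secreted protein that TGF-beta induces and that links collagen VI to integrins. Its values were 1865, 2005 and 1973 FPKM in the controls and 1294, 1246 and 1316 FPKM in the TAZ libraries. The 2 groups were tight and did not overlap, with coefficients of variation of 3.77% and 2.78%. TGFBI fell to 0.660 times the control level (log2 fold change -0.60, SE 0.081, limma adjusted p = 7.2e-05). In absolute terms this was the largest difference among the 10 genes, since the mean fell by 662 FPKM. The gene ranked 16 to 20 in the controls and 32 to 37 in the TAZ libraries.

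POSTN, or periostin, is the paralog of TGFBI and binds integrins and collagen I. It was low, at 2.22, 4.33 and 4.95 FPKM in the controls and 3.41, 2.87 and 3.44 FPKM in the TAZ libraries. The control values spread widely, with replicate 1 below all TAZ libraries and replicates 2 and 3 above them. POSTN did not pass (log2 fold change -0.14, SE 0.18, 95% interval -0.53 to 0.25, limma adjusted p = 0.564). The result depended on which control library was kept. Without control replicate 1 the log2 fold change was -0.41 (limma adjusted p = 0.0172). It was -0.049 without control replicate 2 (adjusted p = 0.874) and 0.031 without control replicate 3 (0.893). The ratio of TGFBI to POSTN was 841, 464 and 398 in the controls and 380, 434 and 383 in the TAZ libraries. The groups overlapped (exact permutation test, two-sided, p = 0.2, 0.2 adjusted over the 4 ratios).

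TNC encodes tenascin-C, a large hexameric glycoprotein that modulates cell adhesion to fibronectin. It measured 676, 781 and 829 FPKM in the controls and 591, 567 and 548 FPKM in the TAZ libraries. The groups did not overlap, and the TAZ libraries varied less. TNC fell to 0.746 times the control level (log2 fold change -0.42, SE 0.091, limma adjusted p = 0.00298). ACTA2, the contractile actin of smooth muscle and myofibroblasts, fell as well and led a pericyte and smooth muscle list that summed to 379 to 593 FPKM in the controls and 201 to 266 FPKM in the TAZ libraries. Of the 3 tested genes of that list, 1 rose and 1 fell, and its part in the falls of TNC, TGFBI, THBS3 and MXRA8 was not tested.

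FN1 encodes fibronectin, a fibrillar glycoprotein on which many matricellular proteins assemble. Its values were 335, 412 and 533 FPKM in the controls and 481, 421 and 373 FPKM in the TAZ libraries. The TAZ range fell wholly inside the control range. The mean was nearly the same in both groups (427 ± 99.6 FPKM in the controls, 425 ± 54.5 FPKM with TAZ overexpression). The log2 fold change of FN1 was 0.013 (SE 0.14, limma adjusted p = 0.953), and its 95% interval ran from -0.30 to 0.32. The ratio of TNC to FN1 was 2.02, 1.90 and 1.56 in the controls and 1.23, 1.34 and 1.47 in the TAZ libraries, with no overlap (exact permutation test, two-sided, p = 0.1, 0.133 adjusted over the 4 ratios). The ratio of THBS1 to FN1 went the other way, from 0.817, 0.669 and 0.646 in the controls to 1.17, 1.41 and 1.23 in the TAZ libraries, again with no overlap (p = 0.1 by the same exact test, 0.133 adjusted). THBS1 messenger was thus below FN1 messenger in each control library and above it in each TAZ library.

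SPARC encodes osteonectin, a collagen-binding glycoprotein known to hold back the formation of fat cells. It was among the most abundant messengers, at 1551, 1768 and 1912 FPKM in the controls and 1797, 1526 and 1680.4 FPKM in the TAZ libraries. The groups overlapped. The log2 fold change of SPARC was -0.062 (SE 0.0997, 95% interval -0.28 to 0.15, limma adjusted p = 0.659). SPARC lay below TGFBI in each control library and above it in each TAZ library.

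**Figure D3:**
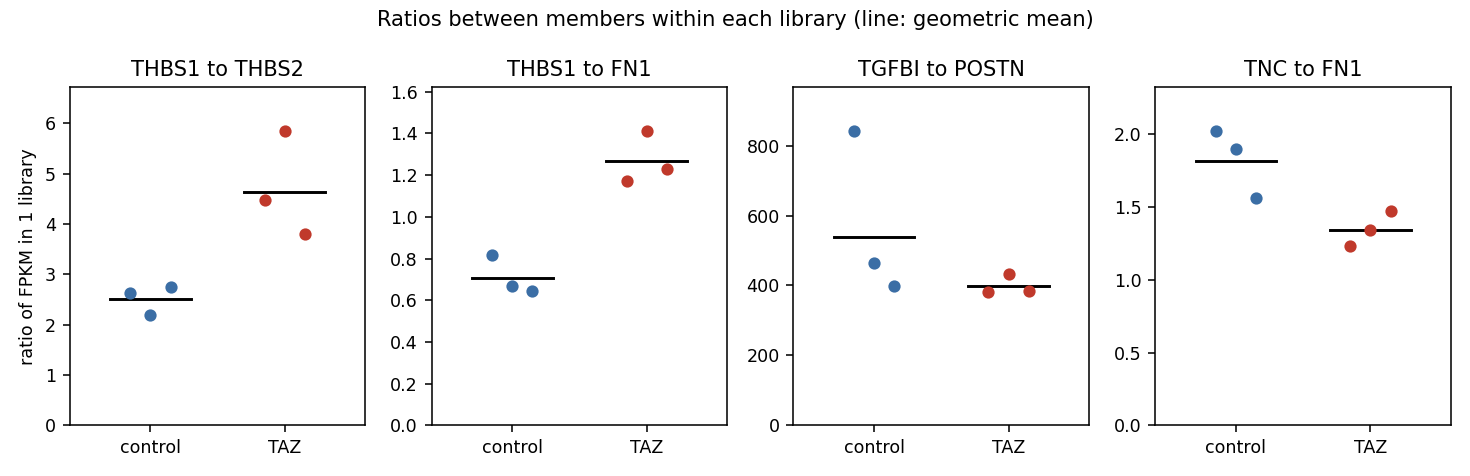
Ratio of the FPKM of 2 genes within each library (vertical axes, linear, starting at 0) for control (blue) and TAZ (red) libraries, with the geometric mean as a line. THBS1 to THBS2 and THBS1 to FN1 are higher in all TAZ libraries, TNC to FN1 is lower in all, and TGFBI to POSTN overlaps.

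By mean FPKM the order in the controls was TGFBI, SPARC, TNC, FN1, THBS1, THBS2, MXRA8, THBS3, POSTN and COMP. Neighbours whose control values overlapped were TGFBI and SPARC, FN1 and THBS1, and THBS2 and MXRA8. In the TAZ libraries SPARC led TGFBI without overlap, and THBS1 stood before FN1 with overlapping values and also overlapped TNC. The 10 genes together took 1.95% to 2.40% of all fragments in the controls and 1.84% to 2.05% in the TAZ libraries. Within their summed FPKM, the share of THBS1 was 5.48% ± 0.442 in the controls against 11.6% ± 1.56 with TAZ overexpression (n = 3 each). The share of TGFBI was 36.0% ± 2.02 and 27.7% ± 1.28, and that of MXRA8 was 2.04% ± 0.336 and 0.540% ± 0.0575.

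Libraries of 1 group differed the same way in many of the genes. Control replicate 1 held the lowest control value for 8 of the 9 tested genes, all but MXRA8, for which it held the highest. Control replicate 3 was highest for 6 of the 9. In the TAZ group replicate 2 was lowest for 6 of the 9 but highest for THBS1. The groups did not overlap for 5 of the 9 tested genes, with THBS1 higher and the other 4 lower. Over all tested genes the groups did not overlap for 48.4%, with 19.7% higher and 28.7% lower.

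Most relatives of these genes were low. Of 12 listed relatives 11 were found and 5 passed the filter, of which 1 rose and 2 fell, beside 15.7% higher and 22.1% lower over all genes. Across the alternatives 0 to 3 rose and 0 to 2 fell. SMOC1, a SPARC-family protein that binds calcium, fell from 1.98 ± 0.315 to 0.190 ± 0.0402 FPKM (log2 fold change -1.32, limma adjusted p = 3.97e-07). It reached 1 FPKM in the controls only, so it passed the filter through the group where it was high. With no filter limma also called it lower (adjusted p = 0.000394). SMOC2 fell from 5.14 ± 1.14 to 3.28 ± 0.636 FPKM (limma adjusted p = 0.0141), a call that was lost when control replicate 2 (adjusted p = 0.056) or TAZ replicate 2 (0.0678) was left out and with no filter (0.0998). SPOCK1, a testican proteoglycan, was the relative that rose, from 1.21 ± 0.378 to 2.33 ± 0.237 FPKM. SPP1, or osteopontin, did not pass at 394 ± 8.51 and 453 ± 22.0 FPKM (adjusted p = 0.0624), but was called higher with median-ratio scaling (0.0338) and quantile normalization (0.0242). THBS4, TNXB, TNR and TNN, the remaining thrombospondin and tenascins, were under the filter. SPARCL1, the closest relative of SPARC, was also under it at 0.101, 0.152 and 0.204 FPKM in the controls and 1.31, 0.622 and 1.01 FPKM in the TAZ libraries. Its groups did not overlap, and with no filter limma called it higher (log2 fold change 0.77, SE 0.13, adjusted p = 0.011).

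Receptors of these proteins moved in both directions. Of 20 tested receptor genes 8 rose and 6 fell, beside 15.7% higher and 22.1% lower over all genes. CD47, the integrin-associated protein that THBS1 binds, stood at 50.7, 44.1 and 55.9 FPKM in the controls and at 135, 117 and 110.2 FPKM in the TAZ libraries. These groups lay far apart, and CD47 rose 2.40 times (log2 fold change 1.25, SE 0.10, limma adjusted p = 7.98e-07). CD36, the other THBS1 receptor and a fatty acid transporter, was under the filter at 0.461, 0.163 and 0.223 FPKM in the controls and 0.130, 0.111 and 0.0418 FPKM in the TAZ libraries.

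SDC4, a syndecan that acts with integrins in adhesion to fibronectin, was 2.13 times as high (88.7 ± 9.66 to 189 ± 5.98 FPKM). SDC2, another syndecan, fell from 9.66 ± 1.34 to 3.32 ± 0.415 FPKM, and VLDLR, a lipoprotein receptor that can bind thrombospondins, rose from 3.91 ± 0.557 to 10.02 ± 0.399 FPKM. SDC4, SDC2 and VLDLR had limma adjusted p-values of 7.64e-07, 1.49e-06 and 1.63e-06. Integrin subunits went both ways, with ITGA3, ITGA9, ITGB8 and ITGAV higher and ITGA6, ITGA8 and ITGB5 lower. ITGA8 stood at 1.77 ± 0.0682 FPKM in the controls and 0.729 ± 0.113 FPKM with TAZ overexpression. It reached 1 FPKM in the controls only, so it passed the filter through the group where it was high. With no filter limma also called ITGA8 lower (adjusted p = 0.00127), but did not call ITGA9 (0.0863) or ITGB5 (0.0633). ITGAV, which pairs into receptors for fibronectin, periostin and tenascin-C, rose from 51.4 ± 9.09 to 68.9 ± 8.13 FPKM (adjusted p = 0.0156), a call that was lost when control replicate 2 (adjusted p = 0.0661) or TAZ replicate 1 (0.0611) was left out and with no filter (0.0962). Of the receptor genes named whatever their p, ITGB1, ITGB3 and ITGA5, all subunits of fibronectin receptors, did not pass. ITGB1 stood at 357 ± 57.2 and 361 ± 31.2 FPKM (limma adjusted p = 0.895). ITGB3 stood at 7.21 ± 0.474 and 5.90 ± 0.428 FPKM (0.0571) and was called lower with quantile normalization (0.0243) and with no mean-variance trend (0.0488). ITGA5 stood at 183 ± 13.7 and 160 ± 18.0 FPKM (0.132) and was called lower without TAZ replicate 2 (0.0414).

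Genes that make, store and sense TGF-beta were split. Of 11 tested, 4 rose and 4 fell, beside 15.7% and 22.1% over all genes, and the 4 that rose became 2 without control replicate 2. LTBP3, which stores latent TGF-beta in the matrix, fell from 31.7 ± 6.21 to 11.2 ± 0.0290 FPKM (log2 fold change -1.41, limma adjusted p = 7.78e-07), whereas LTBP1, of the same family, rose from 32.5 ± 5.14 to 59.1 ± 4.69 FPKM (log2 fold change 0.85, adjusted p = 6.31e-05). The ligand gene TGFB1 fell from 39.1 ± 3.69 to 26.5 ± 2.86 FPKM (adjusted p = 0.000916). TGFB3, another ligand gene, stood at 4.87 ± 1.19 FPKM in the controls and fell to 2.33 ± 0.245 FPKM (adjusted p = 0.000586).

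Of 6 genes known to respond to TGF-beta, 4 fell and 1 rose, beside 22.1% lower and 15.7% higher over all genes. CTGF (also CCN2), a matricellular growth factor that is also a TAZ target, fell to 0.518 times the control level, PMEPA1 to 0.701 times and SKIL to 0.659 times (limma adjusted p = 3.2e-05, 0.0038 and 0.0126). PMEPA1 and SKIL encode feedback inhibitors of the pathway. TGIF1, a transcriptional corepressor of SMAD proteins, was 1.35 times as high (adjusted p = 0.00643).

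**Figure D4:**
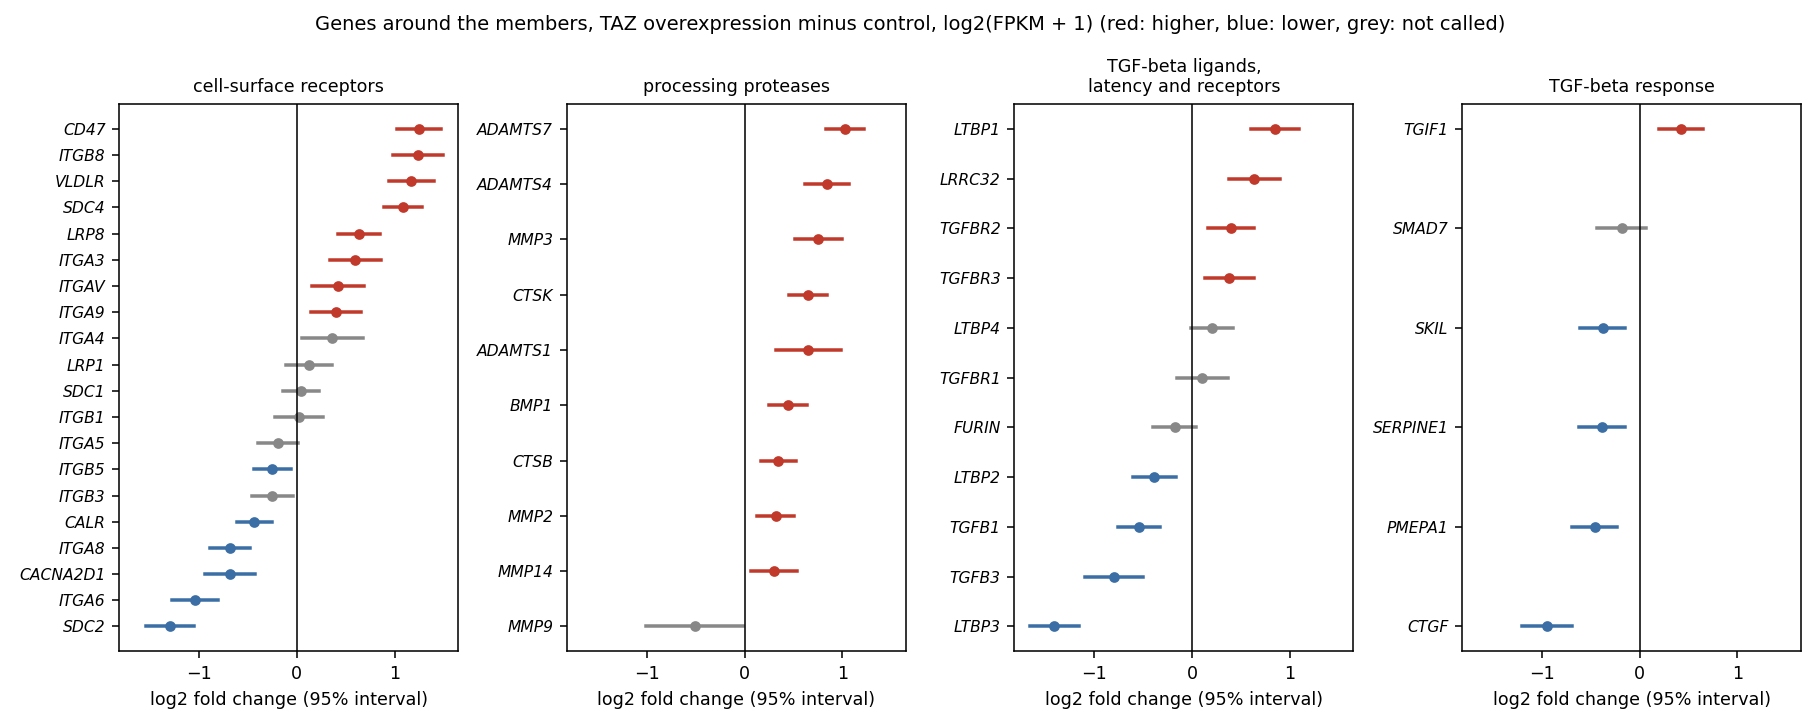
Log2 fold change of FPKM + 1 (horizontal axes, TAZ overexpression minus control) with 95% intervals for tested receptors, processing proteases, TGF-beta ligands with their latency proteins and receptors, and TGF-beta response genes, coloured by call. Of the proteases 9 of 10 are higher, while the receptors spread to both sides, from SDC2 at -1.30 to CD47 at 1.25.

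Proteases that cleave or mature these proteins were mostly higher. Of 10 tested, 9 rose and 0 fell, beside 15.7% higher and 22.1% lower over all genes, and with no filter 6 rose. This list, like the others, was chosen with earlier results of these data known, so its share is a description and not a test. By limma at an unadjusted p under 0.05, MMP9 alone was lower (3.06 ± 1.55 to 1.71 ± 0.369 FPKM, adjusted p = 0.0976), and it passed without control replicate 2. ADAMTS7, which degrades COMP and can cleave THBS1, stood at 8.68, 8.25 and 7.66 FPKM in the controls and at 17.3, 18.6 and 17.2 FPKM in the TAZ libraries. The groups lay apart with little spread, and ADAMTS7 was 2.16 times as high (log2 fold change 1.02, SE 0.090, limma adjusted p = 1.45e-06). ADAMTS4, an aggrecanase, was 1.88 times as high, MMP3, or stromelysin, 1.68 times, and CTSK, the collagen-degrading cathepsin K, 1.57 times.

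Of 12 tested genes of matrix proteins that these genes' products bind, 3 rose and 3 fell, shares of 25.0% each that lie near the 15.7% higher and 22.1% lower over all genes. FBLN2, a fibulin, rose 1.61 times and DCN, the proteoglycan decorin, 1.53 times (limma adjusted p = 0.000155 and 0.00059). FBLN1 fell to 0.677 times and COL6A3, a chain of the collagen VI that TGFBI binds, to 0.710 times the control level (adjusted p = 0.000173 and 0.000805).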

How the data were processed

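The values are FPKM as the authors deposited them, with 1 table holding the controls and another the TAZ libraries. The submitters' processing notes name fastp, HISAT2 and HTSeq. The sources used here give no genome build, strand setting or handling of reads shared between paralogs such as THBS1 and THBS2, and no coordinates or sequences are printed. Of 16285 rows, 23 held a date in place of a symbol and were left out. All 16262 symbols were found in the RefSeq table of goat assembly ARS1.2, used for names only. Library totals and gene lengths were recovered from the steps between FPKM values (tolerance 0.02 fragments, for 99.99% of rows above 0). Steps were 0.5 fragments in most deep genes, so the fragment numbers of low genes could be off by a factor that the tables do not settle. By chi-square of fragments every pair of libraries differed beyond sampling noise (at least 9.27 per degree of freedom).

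Genes that reached 1 FPKM in 3 or more libraries were tested with limma 3.58.1 in R 4.3.3 on log2(FPKM + 1), with empirical Bayes, a mean-variance trend and Benjamini-Hochberg adjustment. The fit was tested on simulated fragments drawn independently for each gene, a setting without deviations that many genes of a library share. Within-library ratios were compared by exact permutation in scipy 1.17.1. Besides all 10 genes and WWTR1, genes named were the 4 with the lowest adjusted p in each list, the leading gene in the less frequent direction, and CD47, CD36, ITGAV, ITGB1, ITGB3 and ITGA5. MMP9, SPARCL1, the cell type markers given singly and the integrins ITGA3, ITGA6, ITGA8, ITGA9, ITGB5 and ITGB8 were named after their values were seen. The genes and lists were chosen with earlier results of these data known. The alternatives were other pseudocounts, filters, scalings and spread models, the replicate number as a block, limma's voom on recovered fragments, and leaving out each library.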

Additional observations from a re-analysis of the deposited data

How the results depend on the processing

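The calls and directions of THBS1, MXRA8, TGFBI, THBS3 and TNC held in all 80 values computed under the 16 alternatives. Of THBS2, POSTN, SPARC and FN1, only POSTN was called under any alternative (without control replicate 1; it has no value with the filter at a mean of 5 FPKM), and the sign of small changes turned: THBS2 was 0.022 with median-ratio scaling, and without single libraries THBS2 ran from -0.12 to 0.061, POSTN from -0.41 to 0.031, SPARC from -0.14 to 0.007, FN1 from -0.15 to 0.19 and ITGB1 from -0.11 to 0.12. COMP brought the genes that fell to 5 with no filter. Of the relatives, 0 rose and 0 fell with the filter at a mean of 5 FPKM, since SMOC1, SMOC2 and SPOCK1 lie under it. With no filter 2 rose and 1 fell, and 3 rose with median-ratio scaling and with quantile normalization. The TGF-beta genes that rose became 2 with no filter. Receptors that rose became 6 in place of 8 with no filter, and proteases that rose became 6 in place of 9. Leaving out single libraries gave 1 to 2 relatives that rose, 1 to 2 that fell and 2 to 4 TGF-beta genes that rose. It also gave 6 to 9 receptors and 8 to 9 proteases that rose, and 0 to 1 proteases that fell. The cause of these shifts was not tested.

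With the replicate number as a block, 1 of the 10 genes rose and 4 fell, as without it, 1 protease (MMP9) fell in place of 0, and over all genes 1548 rose and 1964 fell. Deviations of same-numbered libraries correlated at -0.436, -0.112 and -0.403, and no library correlated best with its own number. These correlations do not settle whether the numbers pair the samples, since the deviations of the libraries in a group depend on one another. The highest correlations were control 1 with TAZ 2 (0.534), control 2 with TAZ 3 (0.552) and control 3 with TAZ 1 (0.691). Whether these libraries share a batch or a culture was not tested, and no fit used that pairing. The 4 ratios kept their directions, with log2 differences without single libraries of 0.72 to 1.03 for THBS1 to THBS2, 0.76 to 0.95 for THBS1 to FN1, -0.65 to -0.11 for TGFBI to POSTN and -0.54 to -0.35 for TNC to FN1. Of the 459 values of the 29 other genes named by rule, 6 lost a call, in SMOC2 and ITGAV, 5 gained one, in SPP1, ITGB3 and ITGA5, and 3 of ITGB1 turned sign. That count leaves out the genes named after their values were seen. Among those, ITGA9 and ITGB5 lost their calls with no filter (limma adjusted p = 0.0863 and 0.0633). Among the 10 genes depth limits COMP, at 12 fragments in all.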
